A study of Mus musculus with 15 samples.

Results

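Olfr78 and Olfr558 are genes of the odorant receptor family that are also expressed outside the nose, in the muscle layer of blood vessels. The 2 genes were taken from the table by their Entrez Gene identifiers, 170639 for Olfr78 (newer symbol Or51e2) and 259097 for Olfr558 (newer symbol Or51e1), out of 17892 genes with values in every library. They were selected on their fold changes between injured and sham knockout cells, where they were among the largest decreases, so values from those libraries are given as a description, without a test. The table holds reads from PDGFRβ-positive cells isolated from the brains of mice. PDGFRβ is the receptor of platelet-derived growth factor that pericytes, vascular smooth muscle cells and perivascular fibroblasts carry. There were 15 libraries in 4 groups: miR-210 knockout mice 24 h after neonatal hypoxia-ischemia (KO HI, replicates 1, 2, 3 and 4), sham knockout mice (KO sham, replicates 1, 3, 4 and 6), wild-type mice 24 h after neonatal hypoxia-ischemia (WT HI, replicates 1, 2, 4 and 5) and sham wild-type mice (WT sham, replicates 1, 2 and 3). Strain, age in days, sex, the design of the knockout allele and the way the cells were sorted are not given in the sources used here. The labels do not state whether replicates are separate animals, so p-values measure the spread between these samples, which may be technical.

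Odorant receptors are G protein-coupled receptors of the cell surface. In olfactory neurons they act through the G protein subunit encoded by Gnal and the adenylyl cyclase encoded by Adcy3, which raises cyclic AMP. Olfr78 is known from mouse vascular smooth muscle, renin-secreting cells of the kidney and the oxygen-sensing glomus cells of the carotid body, and it responds in cell assays to the short-chain fatty acids acetate and propionate. Olfr558, its close relative, is known from vessel walls and responds in cell assays to butyrate and branched short-chain acids. The human counterparts are OR51E2 and OR51E1. The microRNA that the knockout mice lack, miR-210, is induced by hypoxia and represses transcripts that carry a match to its seed, the stretch of bases near its 5′ end that pairs with targets.

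The 2 genes are neighbours on mouse chromosome 7, and Mir210 lies on the same chromosome. In the GENCODE M21 annotation of GRCm38, an older build than the one used for the counts, Olfr558 is on the plus strand and Olfr78 on the minus strand, with 26446 bases between their nearest ends. Mir210 lies 38.5 Mb from Olfr78. The stretch before the annotated start of Olfr558 is shown because it is the only upstream sequence at hand for the pair (RefSeq, GRCm38.p6, chr7:102702073-102702214, plus strand); capitals mark the last 50 bases before the start in GENCODE. The mature strands of miR-210 (RefSeq, GRCm38.p6, minus strand of chromosome 7) are shown because the knockout removes them; capitals mark the seed, bases 2 to 8.
Olfr558 upstream: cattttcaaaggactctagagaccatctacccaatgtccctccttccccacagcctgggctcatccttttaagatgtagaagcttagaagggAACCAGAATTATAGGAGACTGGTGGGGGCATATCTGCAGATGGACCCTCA
mmu-miR-210-3p: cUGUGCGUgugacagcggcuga
mmu-miR-210-5p: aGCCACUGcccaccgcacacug

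The letters ACGCACA, the DNA match to the miR-210-3p seed, occurred 0 times in the annotated coding transcripts of Olfr78 and of Olfr558, 3′ UTRs included. The same letters occurred in the 3′ UTR of 694 of 20999 genes with an annotated 3′ UTR, or 3.3%. The match to the seed of miR-210-5p, CAGTGGC, also occurred 0 times in both, against 13.3% of genes with a 3′ UTR match. In the promoter window of Olfr558, 250 bases before to 50 after its RefSeq start, 3 motifs were searched on both strands as exact matches. The motifs were ACGTG, the core bound by hypoxia-inducible factors, TATAAA, and the CArG box bound by serum response factor (CCWWWWWWGG, W being A or T). The first 142 bases of this window lie before the GENCODE start, and the rest lie within the GENCODE gene. None of the 3 motifs was in this window. They were present in 19.7%, 13.6% and 1.64% of 32544 promoter windows of the same length. A missing match says only that these letters are absent from these annotated sequences.

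No 50-base window was common to the annotated transcripts of the 2 genes, so exact matches of that length tell the pair apart. The 50 bases were a chosen length, and the annotation behind the counts is not given in the sources used here. For Olfr78, 853 of 6026 windows (14.2%) also occurred in transcripts of other genes, most of them in Olfr560, an odorant receptor gene on the same strand that overlaps Olfr78. Olfr560 was assigned 29 reads over all 15 libraries, against 5041 for Olfr78, so how shared reads were split between them is uncertain. For Olfr558, 52 of 2992 windows (1.74%) were shared, all with the gene model Gm45688. The neighbouring receptor genes Olfr33, Olfr561 and Olfr564 had 3 reads each over all libraries.

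Total expected counts per library lay between 15436376 and 18118697. Pericyte and contractile markers were present throughout: 0 of 18 pericyte and 0 of 15 contractile markers were without reads in any library. Transcripts of other cell types were unevenly spread. The summed level of 12 neuron markers was 47.1 to 1295 CPM (reads scaled to the normalized library size) in KO HI, 67.0 to 2099 CPM in KO sham, 52.6 to 55.5 CPM in WT HI and 69.1 to 194 CPM in WT sham libraries. The 5 libraries with the highest neuron markers were KO HI 2 and 3, KO sham 1 and 3 and WT sham 2. The summed level of 12 microglia markers was 5851 to 12587 CPM in KO HI, 3270 to 5812 CPM in KO sham, 1675 to 4509 CPM in WT HI and 2448 to 3469 CPM in WT sham libraries. The summed level of 12 endothelial markers was 2544 to 5356 CPM in KO HI and 3092 to 8587 CPM in KO sham libraries. It was 8027 to 10381 CPM in WT HI and 8671 to 10291 CPM in WT sham libraries. For 7 choroid plexus markers the sum was 1371 to 53551 CPM in KO HI and 147 to 26935 CPM in KO sham libraries. It was 120 to 8515 CPM in WT HI and 1188 to 11563 CPM in WT sham libraries. The part of these transcripts in the receptor values was not tested.

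The pair held the most reads among odorant receptor genes. These reads were not scaled to gene length, and levels per kilobase of exon were worked out for the pair only. Of 1126 lines of the table that were matched to an odorant receptor symbol, 78 had values, and 9 had 100 or more reads over all libraries. Olfr78 held 48.0% and Olfr558 20.3% of the 10500 reads of the family, together 68.3%. The next gene, Olfr613, held 14.7%, followed by Olfr1383 with 4.39% and Olfr570 with 2.81%. Reads per library were 65 to 956 for Olfr78 and 34 to 420 for Olfr558. The lowest count, 34 reads of Olfr558 in KO HI 3, has a 95% Poisson interval of 23.5 to 47.5 reads, which covers counting error only. Per kilobase of annotated exon, with the exons of all transcripts of a gene merged, the levels of the 2 genes were closer than their reads. The coding transcripts of Olfr78 in this annotation have 1962, 3410 and 4695 bases, all shorter than its merged exons. Which of them the cells carried is not known. A shorter length would raise the level of Olfr78 per kilobase and widen the gap, so the closeness depends on the length used. Olfr78, with 6033 exon bases, averaged 1.3 ± 0.70 CPM per kb in KO HI, 4.94 ± 2.97 in KO sham, 2.38 ± 0.47 in WT HI and 4.52 ± 0.53 in WT sham (SD). Olfr558, with 3041 exon bases, averaged 1.1 ± 0.40 CPM per kb in KO HI, 4.64 ± 2.38 in KO sham, 1.31 ± 0.53 in WT HI and 4.06 ± 0.29 in WT sham (SD). With the merged lengths, the widest gap between the pair per kilobase was in WT HI cells.

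In wild-type cells both receptors had lower levels 24 h after hypoxia-ischemia than after sham surgery. These libraries are not in the contrast the genes were chosen on, but earlier results of these data were known at the choice. Olfr78 had 12.6, 11.3, 17.2 and 16.4 CPM in WT HI libraries 1, 2, 4 and 5, against 28.5, 23.7 and 29.7 CPM in WT sham libraries 1, 2 and 3. Olfr558 had 2.91, 2.34, 5.52 and 5.21 CPM in the same WT HI libraries, against 12.9, 11.3 and 12.8 CPM in WT sham libraries. For each gene all 4 WT HI libraries lay below all 3 WT sham libraries, and the groups did not overlap. Of 14853 genes tested, 15.8% had such a lower level without overlap in wild-type cells. WT HI libraries 1 and 2 were the lowest 2 for both genes. Averages were 14.4 ± 2.83 CPM in WT HI and 27.3 ± 3.17 CPM in WT sham for Olfr78, and 4.0 ± 1.60 CPM in WT HI and 12.3 ± 0.87 CPM in WT sham for Olfr558 (SD, n = 4 and 3). In bulk RNA, fewer cells of a type and less RNA per cell cannot be told apart.

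The test of these differences over all genes passed for neither receptor. For Olfr558 the log2 fold change was -1.63 ± 0.41 (SE; 95% interval -2.50 to -0.75), a level 3.09-fold higher in WT sham, with a Benjamini-Hochberg adjusted p = 0.0628 in edgeR's quasi-likelihood test over 14853 genes. For Olfr78 it was -0.92 ± 0.44 (95% interval -1.87 to 0.02), 1.90-fold higher in WT sham, with adjusted p = 0.411 in the same test. By size, the log2 fold change of Olfr558 was the 283rd lowest and that of Olfr78 the 768th lowest of 14853. The edgeR test called 66 genes lower (0.444% of genes tested) and 205 higher (1.38%). This fit shares its estimate of the spread with the KO libraries. In a fit of the 7 wild-type libraries alone, both receptors passed (adjusted p = 0.0112 for Olfr558 and 0.00973 for Olfr78 with edgeR), as did 17.1% of 14253 genes. DESeq2 called Olfr558 (adjusted p = 0.00437), together with 4.92% of the genes it tested. Without KO sham 1 or without KO sham 4, edgeR also called Olfr558 (adjusted p = 0.0433 and 0.034). Over the levels alone, an exact two-sided permutation test of 4 against 3 libraries gave p = 0.0571 for each gene, the smallest value that this design allows.

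The comparison genes overlapped between the wild-type groups, and neither passed the test. Acta2, smooth muscle actin, averaged 910 ± 313 CPM in WT HI and 1064 ± 120 CPM in WT sham, a log2 fold change of -0.23 ± 0.36 and an edgeR adjusted p = 0.886. Pdgfrb, the gene of the receptor used to isolate the cells, averaged 925 ± 125 CPM in WT HI and 860 ± 154 CPM in WT sham, a log2 fold change of 0.10 ± 0.37 and an edgeR adjusted p = 0.958. The summed level of 15 contractile markers was 1861 to 3530 CPM in WT HI and 2973 to 3624 CPM in WT sham libraries, and that of 18 pericyte markers 6458 to 9056 CPM in WT HI and 8859 to 12102 CPM in WT sham libraries. Rgs5 weighs heavily in the pericyte sum, with means of 3381 CPM in WT HI and 5366 CPM in WT sham. The mean sums were 8262 and 10617 CPM. Of the 18 pericyte genes 13 had negative fold changes, with a median log2 fold change of -0.2. WT HI 2, the library with the lowest Olfr558, also had the lowest contractile sum and the highest microglia sum of its group. The part of these cell-type differences in the receptor values was not tested.

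In knockout cells, the samples behind the choice of the genes, Olfr78 had 4.52, 10.4, 3.93 and 12.5 CPM in KO HI libraries 1 to 4, against 18.4, 29.2, 55.3 and 16.3 CPM in KO sham libraries 1, 3, 4 and 6. Olfr558 had 2.43, 4.37, 2.06 and 4.30 CPM in KO HI libraries, against 9.22, 14.3, 24.3 and 8.66 CPM in KO sham libraries. The groups did not overlap for either gene, which held for 2.78% of genes tested in this direction; the rule used this contrast, so nothing is read from it. KO HI 1 and 3 were the lowest libraries and KO sham 4 the highest for both genes. Averages were 7.82 ± 4.24 CPM in KO HI and 29.8 ± 17.9 CPM in KO sham for Olfr78, a log2 fold change of -1.93 ± 0.43. For Olfr558 they were 3.29 ± 1.22 CPM in KO HI and 14.1 ± 7.25 CPM in KO sham, a log2 fold change of -2.10 ± 0.39 (SD, n = 4 each; SE for the fold changes). KO sham libraries ranged 3.40-fold for Olfr78 and 2.81-fold for Olfr558, while WT sham libraries ranged 1.25-fold and 1.13-fold.

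**Figure D1:**
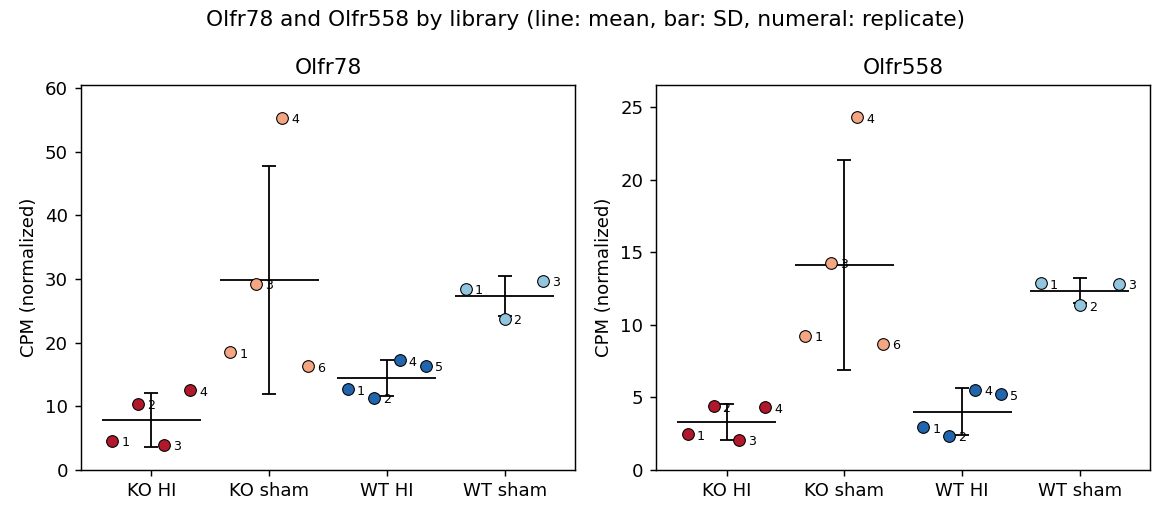
CPM (reads scaled to the normalized library size) of Olfr78 (left) and Olfr558 (right) in each of the 15 libraries; numerals are replicate numbers, lines are group means and bars SDs. In both genotypes every HI library lies below every sham library of that genotype, and KO sham 4 is the highest library for both genes.

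Acta2 was also lower in KO HI, at 406 ± 121 CPM, than in KO sham, at 1039 ± 489 CPM (SD, n = 4 each), a log2 fold change of -1.35 ± 0.34 with an adjusted p = 0.0323 in edgeR. KO sham 4 was the highest library for Acta2 as well. Pdgfrb averaged 356 ± 174 CPM in KO HI and 516 ± 219 CPM in KO sham, a log2 fold change of -0.53 ± 0.35, and its groups overlapped. The contractile sum was 975.3 to 1877 CPM in KO HI and 1910 to 5120 CPM in KO sham libraries, the pericyte sum 1879 to 6364 CPM in KO HI and 3144 to 9223 CPM in KO sham libraries, and the microglia sum was higher in every KO HI library than in every KO sham library. Rgs5 averaged 1411 CPM in KO HI and 3010.5 CPM in KO sham, of mean pericyte sums of 3694 and 6059 CPM. The part of these cell-type differences in the receptor values of knockout cells was not tested.

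Between genotypes the levels of both receptors overlapped, without injury and after it. The log2 fold change of KO sham against WT sham was 0.13 ± 0.44 for Olfr78 and 0.19 ± 0.40 for Olfr558. That of KO HI against WT HI was -0.88 ± 0.42 for Olfr78 and -0.28 ± 0.38 for Olfr558, the second running from -0.47 to -0.08 with single libraries left out. The log2 fold change of KO HI against WT HI was -1.16 ± 0.34 for Acta2 and -1.38 ± 0.35 for Pdgfrb; Pdgfrb did not overlap between these groups, and Acta2 did. The HI response in KO minus that in WT, added after the data were seen, was -1.01 ± 0.61 for Olfr78 and -0.47 ± 0.56 for Olfr558. Without KO sham 4 these were -0.52 and -0.08. That of Olfr558 was also -0.30 without KO HI 3, -0.28 without WT HI 4 and -0.03 with a replicate block. These comparisons share KO libraries with the contrast behind the choice of genes and are given without a test.

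Set against Acta2, Olfr558 was lower after injury in both genotypes. It had 0.778, 0.844, 0.707 and 0.855 reads per 100 Acta2 reads in KO HI libraries 1 to 4, against 1.39, 1.37, 1.41 and 1.20 in KO sham libraries 1, 3, 4 and 6. In WT HI libraries 1, 2, 4 and 5 it had 0.350, 0.467, 0.488 and 0.443 reads per 100 Acta2 reads, against 1.19, 1.21 and 1.09 in WT sham libraries 1, 2 and 3. The groups did not overlap in either genotype, and the KO sham libraries, whose levels of Olfr558 ranged 2.81-fold, had ratios from 1.20 to 1.41. How many of all tested genes separate in their ratio to Acta2 was not counted. The separation is therefore not read as particular to the receptors. The mean log2 ratio of Olfr558 to Acta2 differed by -0.76 between KO HI and KO sham and by -1.42 between WT HI and WT sham. All 4 KO HI libraries had a higher ratio of Olfr558 to Acta2 than all 4 WT HI libraries. Acta2 itself was lower in KO HI than in WT HI (log2 fold change -1.16 ± 0.34), and Olfr558 was not higher there (-0.28 ± 0.38).

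Olfr78 had 1.45, 2.0, 1.35 and 2.48 reads per 100 Acta2 reads in KO HI libraries 1 to 4, against 2.77, 2.80, 3.20 and 2.26 in KO sham libraries 1, 3, 4 and 6. In WT HI libraries 1, 2, 4 and 5 the ratio was 1.52, 2.27, 1.52 and 1.39, against 2.63, 2.53 and 2.53 in WT sham libraries 1, 2 and 3. The knockout groups overlapped, since KO HI 4 exceeded KO sham 6, and the wild-type groups did not. The mean log2 ratio of Olfr78 to Acta2 differed by -0.64 between HI and sham in each genotype.

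Set against Pdgfrb, Olfr558 had 0.668 to 1.61 reads per 100 Pdgfrb reads in KO HI libraries, against 1.63 to 3.68 in KO sham libraries. It had 0.278 to 0.576 in WT HI libraries, against 1.3 to 1.65 in WT sham libraries, without overlap in either genotype. Olfr78 had 1.24 to 3.81 reads per 100 Pdgfrb reads in KO HI libraries, against 3.06 to 7.35 in KO sham libraries, and these groups overlapped through KO HI 2 and KO sham 6. In WT HI libraries it had 1.20 to 1.79, against 2.89 to 3.44 in WT sham libraries, without overlap. The share of all tested genes with such a separation in their ratio to Pdgfrb was not counted. The differences in mean log2 ratio to Pdgfrb in wild-type cells were -1.83 for Olfr558 and -1.05 for Olfr78. Each of the 5 ratios compared in wild-type cells gave an exact two-sided permutation p = 0.0571, the smallest value possible with 4 against 3 libraries. This p remained 0.0571 after adjustment over the 5, so the test could not pass the threshold of 0.05. The 5 include the ratio between the receptors, which was added after the data were seen, so its p is a description only.

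**Figure D2:**
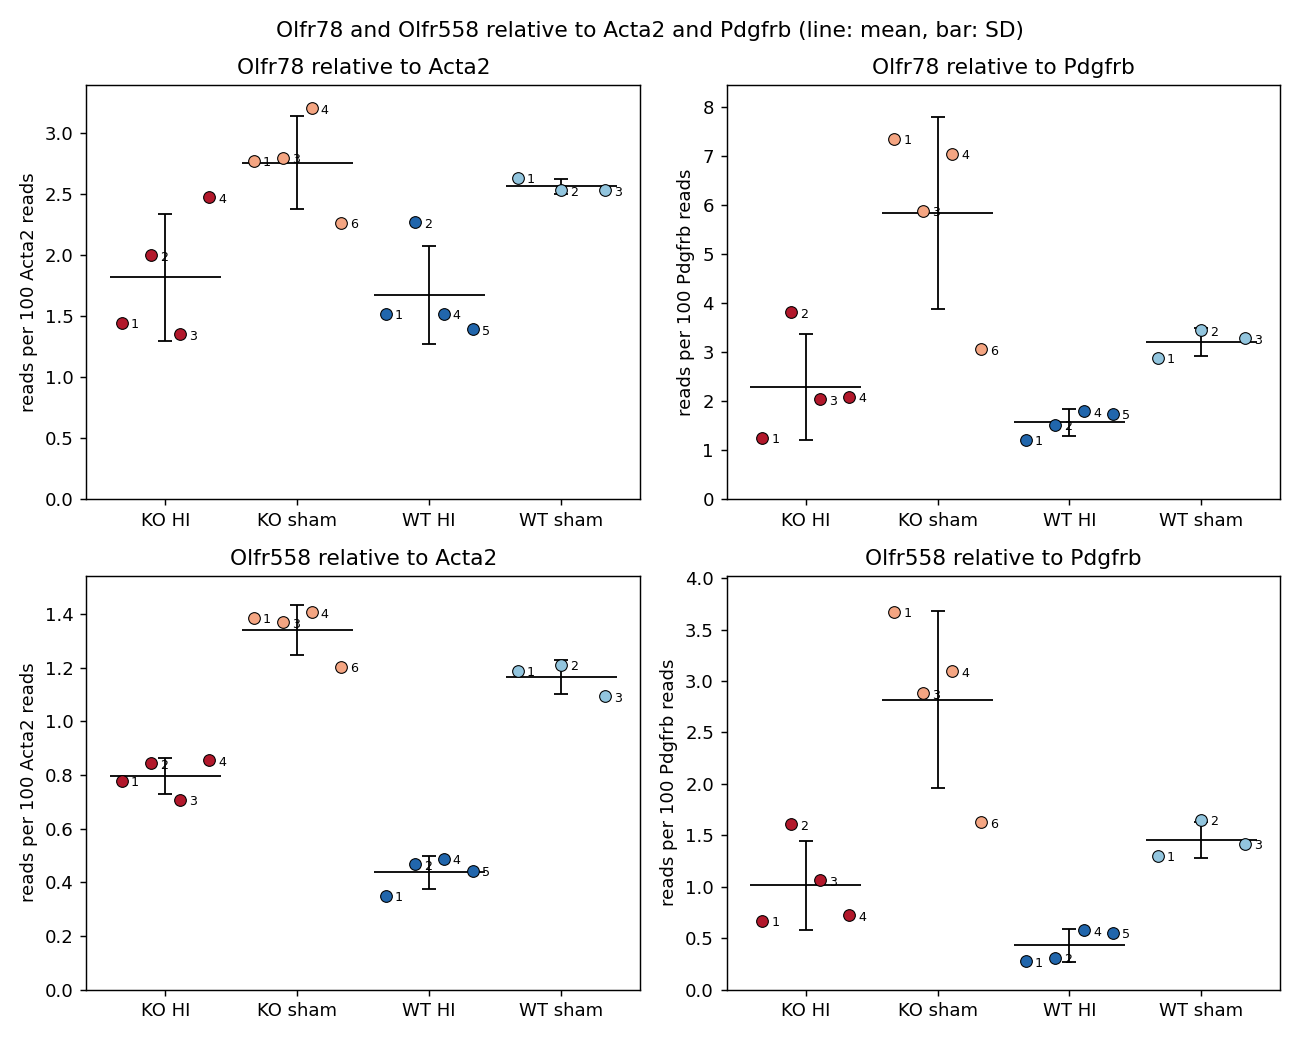
Reads of Olfr78 (top) and Olfr558 (bottom) per 100 reads of Acta2 (left) and of Pdgfrb (right) in each library; numerals are replicate numbers, lines are group means and bars SDs. Olfr558 relative to Acta2 separates the HI from the sham libraries of each genotype. This ratio is 0.707 to 0.855 in KO HI and 0.350 to 0.488 in WT HI libraries. From WT HI to KO HI the log2 fold change was -1.16 for Acta2 and -0.28 for Olfr558.

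The share of Olfr78 in the reads of the pair was highest in the WT HI libraries. There were 1.86, 2.37, 1.91 and 2.90 reads of Olfr78 per read of Olfr558 in KO HI libraries 1 to 4, against 2.0, 2.04, 2.28 and 1.88 in KO sham libraries 1, 3, 4 and 6. In WT HI libraries 1, 2, 4 and 5 there were 4.33, 4.85, 3.11 and 3.14, against 2.21, 2.09 and 2.31 in WT sham libraries 1, 2 and 3. All 4 WT HI libraries were above all other 11 libraries. How often a pair of genes separates in this way was not counted. The mean log2 ratio differed by 0.78 between WT HI and WT sham and by 0.12 between KO HI and KO sham (0.21 without KO HI 1, 0.19 without KO HI 3 and -0.01 without KO HI 4). This ratio was added after the data were seen.

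**Figure D3:**
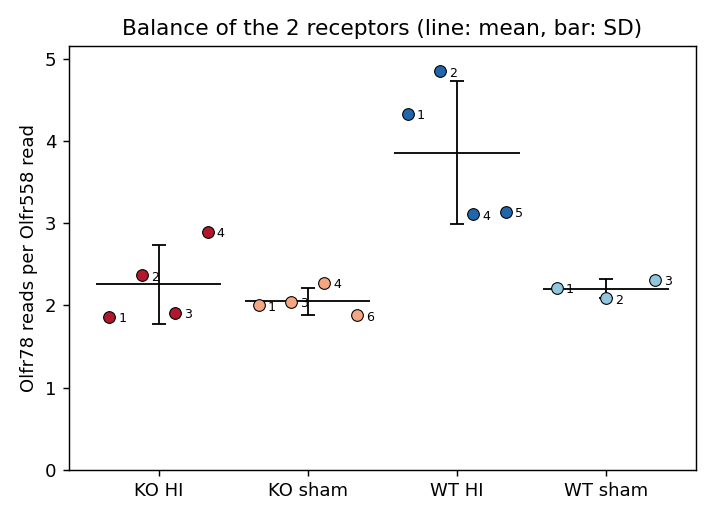
Reads of Olfr78 per read of Olfr558 in each library; numerals are replicate numbers, lines are group means and bars SDs. The WT HI libraries lie at 3.11 to 4.85 and the other groups between 1.86 and 2.90.

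The genes whose levels ran closest to the receptors over the 15 libraries included genes of muscle contraction and of elastic matrix. Closeness was the mean absolute difference in log2 CPM after each gene was centred on its own mean, so that a low value needs both the same order and the same size of change. Among the 8 closest to Olfr78 were Aoc3, an amine oxidase abundant in smooth muscle, at 0.19, Myocd, the coactivator that switches on contractile genes, at 0.20, Fbln5, an elastic fibre protein, at 0.20, Eln, elastin, at 0.21, Itga7, a laminin-binding integrin of muscle, at 0.21, Insc, an adaptor of spindle orientation, at 0.22, and Map3k7cl at 0.22. The 8 closest to Olfr558 were Insc at 0.25, Map3k7cl at 0.28, Ptprr, a tyrosine phosphatase, at 0.29, Hrc, a calcium-binding protein of the sarcoplasmic reticulum, at 0.31, Hjv, a co-receptor of bone morphogenetic proteins, at 0.31, Lmcd1, a LIM domain protein, at 0.32, Pln, the inhibitor of the sarcoplasmic calcium pump, at 0.33, and Olfr78 itself at 0.34. Insc and Map3k7cl were on both lists. Olfr558 was the 36th closest gene to Olfr78. With each group centred on its own mean, Olfr558 ranked 17th for Olfr78, and Olfr78 ranked 27th for Olfr558. The median over all 14852 other genes was 0.80 for Olfr78 and 0.96 for Olfr558.

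Acta2 was the 53rd closest gene to Olfr78 (0.36) and the 100th closest to Olfr558 (0.54). Pdgfrb was much farther, the 3156th closest to Olfr78 (0.69) and the 5643rd closest to Olfr558 (0.92). Insc had 3.03 to 7.04 CPM in KO HI, 9.73 to 27.2 CPM in KO sham, 6.33 to 10.6 CPM in WT HI and 16.8 to 20.2 CPM in WT sham libraries, so it too was lower without overlap after injury in both genotypes. This pattern was shared by 201 of 14853 genes (1.35%). With each group centred on its own mean, 4 of the 8 genes closest to Olfr78 and 2 of the 8 closest to Olfr558 stayed among the closest 8. The libraries are common to all genes, so these values are a description.

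**Figure D4:**
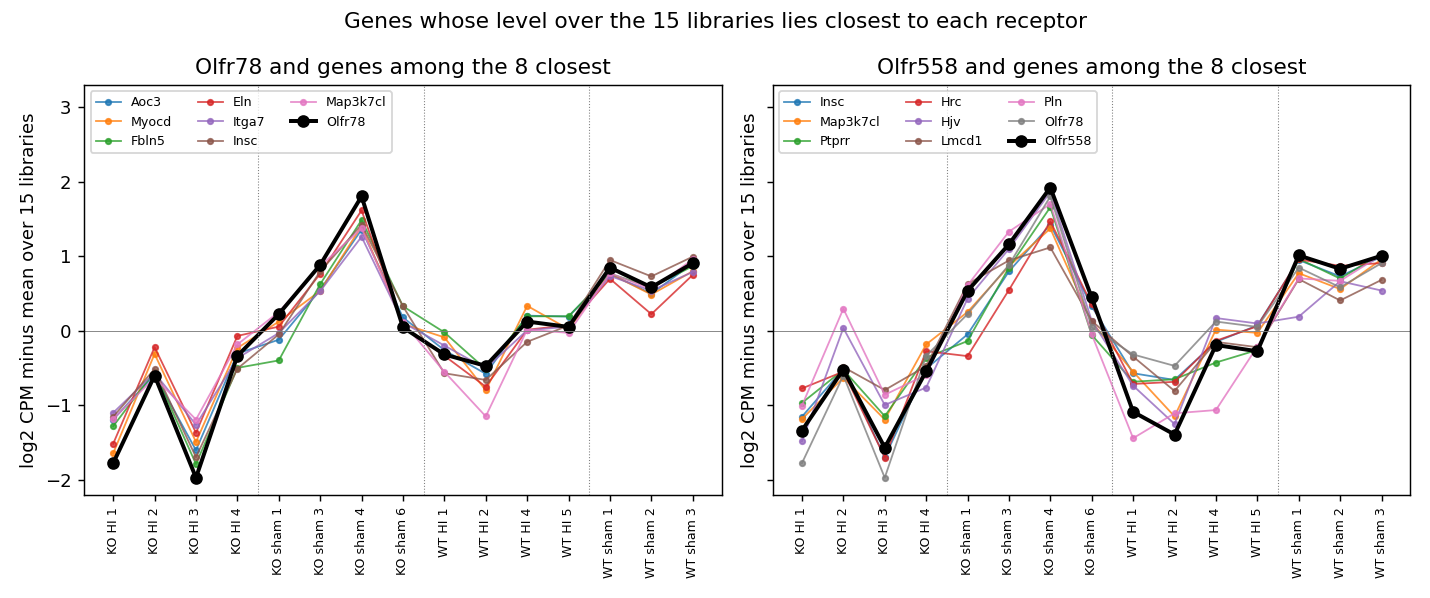
Log2 CPM minus the mean over 15 libraries for Olfr78 (left) and Olfr558 (right), drawn in black, with genes among the 8 closest to each in colour, in KO HI, KO sham, WT HI and WT sham libraries. KO sham 4 is the highest library for both receptors, and WT HI 1 and 2 lie lower for Olfr558 than for Olfr78.

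The odorant receptor genes next in mean CPM had the following levels. Olfr613, also on chromosome 7, averaged 5.44 ± 1.02 CPM in KO HI, 5.68 ± 1.88 in KO sham, 6.70 ± 1.07 in WT HI and 5.68 ± 0.50 in WT sham (SD). Its log2 fold change was -0.06 ± 0.25 in knockout and 0.24 ± 0.27 in wild-type cells, HI against sham (edgeR adjusted p = 0.918 and 0.819). Olfr1383, on chromosome 11, had log2 fold changes of -0.85 ± 0.51 in knockout and 0.01 ± 0.53 in wild-type cells (edgeR adjusted p = 0.374 and 0.996). Olfr570 was uneven, with 0.056 to 6.27 CPM in KO HI and 0.058 to 3.23 CPM in KO sham libraries. Of 78 family genes with values 11 passed the filter on low counts, and 2 of these, Olfr78 and Olfr558, were lower without overlap in WT HI than in WT sham, against 15.8% of all genes tested.

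Among receptors for related ligands, Hcar2, the receptor for niacin and the ketone body β-hydroxybutyrate, rose. It had 4.78 to 18.1 CPM in KO HI against 0.293 to 1.74 CPM in KO sham libraries, and 5.15 to 13.7 CPM in WT HI against 0.279 to 1.37 CPM in WT sham libraries. Its log2 fold change was 3.88 ± 0.62 in knockout (edgeR adjusted p = 0.00579) and 3.28 ± 0.69 in wild-type cells (edgeR adjusted p = 0.0286). Of the 4 receptors for short-chain fatty acids, lactate and related acids in this list, 3 were tested, 1 of them rose in each genotype and 0 fell. In knockout cells 4.88% of all genes rose and 2.13% fell, and in wild-type cells 1.38% rose and 0.444% fell. Hcar1, the lactate receptor, was at 0.17 ± 0.50 in knockout and 0.34 ± 0.54 in wild-type cells on the log2 scale, and Ffar2, a short-chain fatty acid receptor, at -0.02 ± 0.55 and -0.57 ± 0.55. Ffar3 had no values. The call of Hcar2 in wild-type cells was lost without any of WT HI 1, WT HI 2 or WT sham 1, 2 or 3, with limma-voom and with a replicate block (highest adjusted p = 0.182). Its knockout call was lost in a fit of the 2 groups alone and with the block (highest adjusted p = 0.0867). The summed microglia markers were higher in every KO HI than in every KO sham library and overlapped between WT HI and WT sham; their part in the Hcar2 values was not tested.

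In odorant receptor signalling, 12 of 18 genes were tested. Reep1, a membrane protein that helps odorant receptors reach the surface in cell assays, fell in both genotypes. It had 62.1 to 75.7 CPM in KO HI against 93.6 to 135 CPM in KO sham libraries, and fell by 0.67 ± 0.11 on the log2 scale (adjusted p = 0.00641, edgeR). In wild-type cells it had 78.7 to 94.0 CPM in WT HI against 128 to 142 CPM in WT sham libraries, and fell by 0.68 ± 0.12 on the log2 scale (adjusted p = 0.0126, edgeR). Adcy3, the olfactory adenylyl cyclase, rose in knockout cells by 0.61 ± 0.17 (edgeR adjusted p = 0.0479) and was at 0.26 ± 0.18 in wild-type cells (edgeR adjusted p = 0.651). Gnas, the widespread stimulatory G protein subunit, averaged 1078 CPM in KO HI, 1259 in KO sham, 977 in WT HI and 1171 in WT sham, while Gnal, its olfactory relative, averaged 58.3, 99.4, 5.36 and 12.2 CPM in the same order, highest in the groups with high neuron markers. Rtp1, Rtp2, Cnga2, Cnga4, Ano2 and Omp, genes of olfactory neurons, were below the filter. Of the 12 genes, 1 rose and 1 fell in knockout cells, where 4.88% of all genes rose and 2.13% fell, and 1 fell in wild-type cells, where 0.444% of all genes fell. The wild-type call of Reep1 was lost without WT sham 1, 2 or 3 and with a replicate block (highest adjusted p = 0.0859), and its knockout call in a fit of the 2 groups alone and with the block (highest adjusted p = 0.123).

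Of 23 tested vasoactive receptors, P2rx4, an ATP-gated channel, rose in knockout cells by 0.97 ± 0.21 on the log2 scale (edgeR adjusted p = 0.0173), where 4.88% of all genes rose, and 0 fell. The microglia sum was higher in every KO HI than in every KO sham library, and its part in the P2rx4 values was not tested. In wild-type cells the edgeR test called 0 of 23, with 4 at an unadjusted p under 0.05; DESeq2 called 1 up and 1 down and limma-voom 0. The smallest adjusted p-values there belonged to Avpr1a, a vasopressin receptor, at 1.80 ± 0.46 (edgeR adjusted p = 0.067), and P2rx1, the ATP-gated channel of smooth muscle, at -1.02 ± 0.28 (edgeR adjusted p = 0.0859). The median log2 fold change of the vasoactive list was -0.41 in knockout and 0.11 in wild-type cells. The medians of all tested genes were -0.06 and -0.01. The call of P2rx4 was lost without KO HI 1, without KO sham 3, in a fit of the 2 groups alone and with a replicate block (highest adjusted p = 0.176).

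Of 15 contractile genes 4 fell in knockout cells: Acta2, Pln at -1.54 ± 0.42, Myocd at -1.46 ± 0.41 and Myl9, a myosin light chain, at -1.10 ± 0.30 (edgeR adjusted p = 0.0459, 0.0471 and 0.0473), while 2.13% of all genes fell. The count of 4 was 0 in a fit of the 2 groups alone and with a replicate block, 9 with DESeq2, and 0 to 12 with single libraries left out. Their list had a median of -1.05, and all 15 had negative fold changes. In wild-type cells edgeR called 0 of the 15, with 1 at an unadjusted p under 0.05, Pln at -1.76 ± 0.45 (edgeR adjusted p = 0.0689), which DESeq2 also called as lower, while limma-voom called 0; the median was -0.10. Of 18 pericyte genes edgeR called 0 in knockout cells (4 at an unadjusted p under 0.05; 4 lower by DESeq2 and 0 by limma-voom) and 0 in wild-type cells (1 at an unadjusted p under 0.05; 0 by DESeq2 and 0 by limma-voom), with medians of -0.54 and -0.20. Both receptors had log2 fold changes below the contractile and pericyte medians in each genotype, which is given as a description. In knockout cells this followed from their choice as large decreases, so nothing is read from it. In wild-type cells Pln lay below both receptors, and Art3 of the pericyte list, at -1.01 ± 0.44, lay below Olfr78 at -0.92. A fit of the 2 groups alone, a replicate block, no filter on low counts, or leaving out any of KO HI 1, KO HI 3, KO sham 3, KO sham 4, WT HI 1, WT HI 4 or a WT sham library ended the knockout calls of Pln, Myocd, Myl9 and Adcy3 (highest adjusted p = 0.232, 0.244, 0.23 and 0.229 over all settings). The call of Acta2 was lost without KO HI 1, KO HI 3, KO sham 3 or KO sham 4, in a fit of the 2 groups alone, with a replicate block and without the 5 libraries highest in neuron markers (highest adjusted p = 0.165).

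The genes that mark oxygen sensing in glomus cells, another site of Olfr78, did not pass the edgeR test. Of 10 tested genes edgeR called 0 in knockout cells (4 at an unadjusted p under 0.05; 3 lower by DESeq2 and 0 by limma-voom) and 0 in wild-type cells (0 at an unadjusted p under 0.05; 0 by DESeq2 and 0 by limma-voom). The list's median was -0.64 in knockout and -0.42 in wild-type cells. Epas1, the hypoxia-inducible factor subunit of endothelium and glomus cells, averaged 909 CPM in KO HI, 1508 in KO sham, 1876 in WT HI and 2025 in WT sham. Cox4i2, Ndufa4l2 and Rgs5 of this list are also pericyte markers. Higd1c had no values and Cox8b was below the filter.

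**Figure D5:**
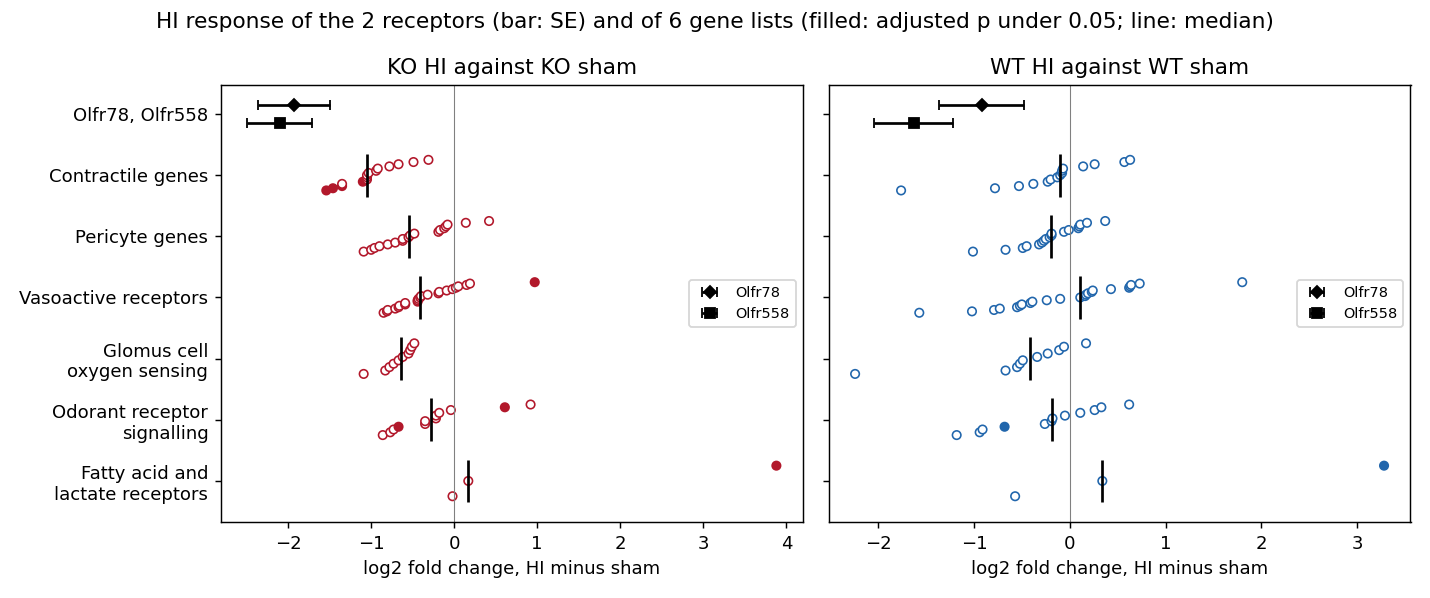
Log2 fold changes of HI against sham in knockout (left) and wild-type cells (right) for Olfr78 and Olfr558 (black, bars are SE) and for the tested genes of 6 lists (circles; filled where the edgeR adjusted p was under 0.05; vertical ticks are list medians). In knockout cells, on whose contrast the receptors were chosen, they lie at -1.93 and -2.10 and the contractile median at -1.05. In wild-type cells the receptors lie at -0.92 and -1.63, the contractile median at -0.10 and the contractile gene Pln at -1.76.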

How the data were processed

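RNA was sequenced from PDGFRβ-positive mouse brain cells. The authors deposited 1 table of expected counts, which are estimates and not normalized; RSEM among the tools and the values, 3.12% to 3.92% of them fractional in each library, gave the unit. The submitters' processing notes name RSEM 1.3.1, HISAT2 2.1.0, DESeq2 1.4.5, Bowtie and Bowtie2 2.4.4, and the build mm39; their roles and the annotation are not given in the sources used here. Of 65535 lines 17892 carried values and 47643 were blank, so a blank line does not show that a gene is silent; 17862 were matched to a symbol.

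Expected counts were rounded. Genes passing filterByExpr (14853, both receptors among them) were fitted with 4 group means over 15 libraries in edgeR 4.0.16 (TMM, glmQLFit, glmQLFTest; R 4.3.3); calls needed an adjusted p (Benjamini-Hochberg) under 0.05. The biological coefficient of variation was 38.6%. DESeq2 1.42.0 and limma-voom (limma 3.58.1), other normalization and filter, a fit of 2 groups, a replicate block and left-out libraries were alternatives. The fit was also run on simulated data. Those counts were independent and held no shared cell-type differences, so that run does not show whether the calls here hold. CPM are counts scaled to the normalized library size. Replicates differed beyond counting noise (chi-square per degree of freedom 11.7 to 400), so no library was a copy.

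The members and lists were chosen with earlier results of these data known. Besides the receptors, Acta2 and Pdgfrb, the text names the 5 odorant receptor genes with the highest mean CPM, genes among the 8 closest to each receptor (1 of them is not reported here), and up to 4 genes per list and genotype with the smallest p; Gnas, Gnal, neighbouring genes and genes without values or below the filter were named after their values were seen. Gene positions, UTRs and shared windows came from GENCODE M21 (GRCm38), sequences from RefSeq.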

Additional observations from a re-analysis of the deposited data

How the results depend on the processing

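The log2 fold changes of both receptors kept their sign for HI against sham in both genotypes under all alternatives run. In wild-type cells Olfr78 ran from -1.35 to -0.92 and Olfr558 from -2.17 to -1.62 over other normalization, filter, tools, sample choice and block, with adjusted p from 0.00973 to 0.459 and from 0.00437 to 0.0748. Calls were gained in wild-type cells for Olfr78 in the 2-group fit (-0.93) and for Olfr558 with DESeq2 (-1.62) and in the 2-group fit (-1.63). With single libraries left out, Olfr78 ran from -1.02 to -0.83 (adjusted p 0.276 to 0.73) and Olfr558 from -1.82 to -1.44 (adjusted p 0.034 to 0.211). The knockout count of 1041 called genes became 1896 with DESeq2, 16 in the 2-group fit, 2458 without the 5 libraries with high neuron markers and 355 to 1927 with single libraries left out. The wild-type count of 271 became 776, 2443, 750 and 48 to 554 in the same order. The causes were not tested. Replicate numbers are shared between groups, and the labels do not say whether they pair libraries. Deviations of same-numbered libraries correlated from -0.78 to 0.79, which does not settle whether the numbers pair them. With a replicate block Olfr78 was at -1.35 and Olfr558 at -2.17 (edgeR adjusted p = 0.0723) in wild-type cells. The block left 73 genes called in knockout and 16 in wild-type cells. With single libraries left out, KO sham against WT sham crossed 0 for both receptors (-0.36 to 0.33 for Olfr78, -0.20 to 0.37 for Olfr558), as it did for Olfr78 with limma-voom (-0.03) and a replicate block (-0.04). Of 528 list counts 445 stayed within 1.5 times and 83 did not. Most list counts were 0 in the main fit, and a count that remained 0 was scored as staying. The share kept therefore does not measure how stable the calls were. Of 22 alternatives, 5 kept the knockout call of Adcy3, 6 that of Pln and 20 those of Reep1 and Hcar2. Reads of Olfr558 numbered 34 to 420 per library; in WT sham their Poisson intervals overlapped (197 to 256, 176 to 233 and 203 to 264 reads), so counting error is not small beside the spread there. The exact tests are limited by 4 against 3 libraries.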

Other observations

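Among other odorant receptor genes, Olfr111 rose in knockout cells after injury; it and Olfr110, both on chromosome 17, were named after their values were seen. Olfr111 had 0.806 to 2.15 CPM in KO HI libraries, against 0.220 to 0.340 CPM in KO sham libraries, and 0.514 to 1.94 CPM in WT HI libraries, against 0.111 to 0.343 CPM in WT sham libraries. Its log2 fold change was 2.37 ± 0.51 in knockout cells (adjusted p = 0.0169, edgeR) and 1.79 ± 0.56 in wild-type cells (adjusted p = 0.152, edgeR). The knockout call was lost without KO HI 1, in a fit of the 2 groups alone and with a replicate block (highest adjusted p = 0.152). Olfr110 had 1.09 to 1.53 CPM in KO HI libraries, against 0.146 to 0.493 CPM in KO sham libraries, and 0.229 to 0.912 CPM in WT HI libraries, against 0 to 0.286 CPM in WT sham libraries, and the wild-type groups overlapped. Its log2 fold change was 2.14 ± 0.64 in knockout and 1.55 ± 0.74 in wild-type cells, and neither passed (adjusted p = 0.062 and 0.414, edgeR). Over all libraries they had 202 and 151 reads, so single libraries rest on few reads, and the 2 genes may share sequence, which was not examined.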
